A study of Mus musculus with 47 samples.

Results

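The genes of the tight junction and of epithelial polarity described here were followed through every ChIP-seq peak list of a study of NMuMG, an established mouse mammary epithelial line. Its cells lose epithelial features and turn mesenchymal under transforming growth factor β1 (TGFβ1), a process called EMT. The 10 genes, of 21887 protein-coding genes on the assembled chromosomes, were Cldn3, Cldn4, Cldn7, Ocln, Marveld2, Lsr, Tjp1, Tjp3, Cgn and Crb3. A peak was assigned to a gene when it touched the gene's mm10 span or the 10 kb to either side, and this gave 645 peaks in 32 lists. The design set control cells (library names sgCt) beside Pbrm1 KO cells (sgPbrm1), without TGFβ1 (0 h) or with 5 ng/ml TGFβ1 for 24 or 48 h. The PBAF complex, which belongs to the SWI/SNF family of remodellers, contains both the bromodomain protein PBRM1 and PHF10, BRG1 is the SWI/SNF ATPase, and ATF3, FOSL2 and FOSB are bZIP transcription factors. PHF10 was profiled in control cells at 0, 24 and 48 h and in KO cells at 0 and 48 h, BRG1 in control cells at 0 h, ATF3 in both genotypes at all 3 times, and FOSL2 and FOSB in both genotypes at 0 and 48 h. H3K4me3, H3K4me1, H3K27ac, H3K14ac and H3K18ac were profiled in control cells at 0 and 48 h. For PHF10 in control cells the 0 h and 48 h groups each had 2 libraries, and every other group had 1. Nothing in the labels says that the 2 libraries came from separate cultures, so a test over them measures only the spread between these libraries. Whether the KO cells are a clone or a pool is not given in the sources used here, and a peak list does not check the knockout.

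Tight junctions seal the space between neighbouring epithelial cells. Claudins (Cldn3, Cldn4 and Cldn7) build the strands, while occludin (Ocln), tricellulin (Marveld2) and the lipolysis-stimulated lipoprotein receptor (Lsr) are further membrane proteins, the last pair at the corners where cells meet. The scaffolds encoded by Tjp1 and Tjp3 (zonula occludens proteins) and cingulin (Cgn) tie the strands to actin, and Crb3 belongs to the Crumbs complex that sets the apical side. Loss of this machinery is a textbook feature of EMT. Of the histone marks, H3K4me3 is known from promoters, H3K4me1 from enhancers and promoter flanks, and the acetylations from active chromatin.

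The windows of the 10 genes did not overlap each other. Cldn4 and Cldn3 lay 39279 bp apart on chromosome 5 (134945123 to 134946934 and 134986214 to 134987476), and Ocln and Marveld2 lay 43238 bp apart on chromosome 13 (100496504 to 100552718 and 100595957 to 100616971). Cldn7 spanned 69964779 to 69967886 of chromosome 11, Lsr 30957770 to 30973469 and Tjp1 65296165 to 65527850 of chromosome 7, Tjp3 81273188 to 81291581 of chromosome 10, Cgn 94760069 to 94787725 of chromosome 3, and Crb3 57062201 to 57065918 of chromosome 17. The median span, 17047 bp, was close to the 17169 bp of all genes, but Tjp1 alone covered 231686 bp. Windows of Cldn3, Tjp1 and Cgn held no other protein-coding gene. Those of Lsr (Usf2, Fam187b), Tjp3 (Mrpl54, Apba3, Pip5k1c) and Crb3 (Slc25a23, Dennd1c) held several, and 467 of the 645 peaks had the member itself as the nearest gene. That share was lowest at Crb3 (20 of 53) and at Tjp3 (79 of 161), so peaks of those windows are placed below by their distance from the member's start site. The start sites are those of the RefSeq promoter windows, and distances are negative or "upstream" against the direction of transcription.

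The promoter windows of 5 genes are shown because a PHF10 peak covered them in both or the only library of one arm of a comparison and in none of the other, or because they hold AP-1 words. Each runs from 250 bases before to 50 after the RefSeq start (GRCm38.p6, the assembly of mm10), 5′ to 3′ on the gene's strand. Capitals mark matches, on either strand, to the AP-1 word TGANTCA, the CRE word TGACGTCA or the E-box CAGGTG.
Cldn4, chr5:134946885-134947184, minus strand: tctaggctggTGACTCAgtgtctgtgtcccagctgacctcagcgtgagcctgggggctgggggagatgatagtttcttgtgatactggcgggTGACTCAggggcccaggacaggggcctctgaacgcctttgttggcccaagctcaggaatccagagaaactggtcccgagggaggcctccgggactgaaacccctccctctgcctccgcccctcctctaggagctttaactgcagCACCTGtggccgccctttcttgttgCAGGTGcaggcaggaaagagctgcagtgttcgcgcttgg
Lsr, chr7:30973420-30973719, minus strand: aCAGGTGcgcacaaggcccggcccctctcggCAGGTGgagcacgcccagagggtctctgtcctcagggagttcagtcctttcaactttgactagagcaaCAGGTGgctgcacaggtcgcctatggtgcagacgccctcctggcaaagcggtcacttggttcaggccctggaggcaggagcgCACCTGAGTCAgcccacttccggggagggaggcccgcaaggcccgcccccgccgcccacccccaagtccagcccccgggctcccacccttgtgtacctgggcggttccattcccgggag
Crb3, chr17:57061951-57062250, plus strand: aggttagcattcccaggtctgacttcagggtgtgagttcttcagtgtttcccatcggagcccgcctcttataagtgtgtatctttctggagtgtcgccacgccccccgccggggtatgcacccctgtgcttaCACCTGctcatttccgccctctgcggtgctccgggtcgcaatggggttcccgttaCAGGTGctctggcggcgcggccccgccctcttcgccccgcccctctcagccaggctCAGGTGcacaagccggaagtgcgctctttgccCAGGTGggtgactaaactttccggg
Cldn3, chr5:134985964-134986263, plus strand: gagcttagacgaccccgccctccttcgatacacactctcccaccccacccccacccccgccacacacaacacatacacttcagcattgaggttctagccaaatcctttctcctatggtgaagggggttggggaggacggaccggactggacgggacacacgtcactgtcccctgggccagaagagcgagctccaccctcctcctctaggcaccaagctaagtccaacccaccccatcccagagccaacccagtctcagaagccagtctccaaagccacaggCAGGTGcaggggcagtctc
Tjp3, second start, chr10:81291218-81291517, minus strand: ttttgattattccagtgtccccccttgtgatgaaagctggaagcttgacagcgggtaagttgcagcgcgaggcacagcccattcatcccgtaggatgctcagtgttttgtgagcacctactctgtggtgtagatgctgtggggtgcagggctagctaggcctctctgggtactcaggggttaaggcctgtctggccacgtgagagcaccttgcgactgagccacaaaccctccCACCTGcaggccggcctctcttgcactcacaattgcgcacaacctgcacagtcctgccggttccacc
The second window of Crb3, which also met this rule, overlaps the first and is not printed. Cldn4 held 2 copies of the AP-1 word TGACTCA, beginning 240 and 158 bases before the start. Among 21263 promoter windows of protein-coding genes, 6.99% held at least 1 AP-1 word and 0.372% held 2 or more. Lsr held 1 AP-1 word, TGAGTCA, 65 bases before the start, which shares 2 bases with an E-box, and no window of the other 8 genes held any. A CRE word (2.23% of windows) was found only at the second start of Cldn7, 38 bases before it. E-boxes (19.7% of windows) were present in every member but Tjp1 and Cgn, with 4 copies each in the first windows of Lsr and Crb3. The 15 member windows had a median GC content of 62.3%, against 56.3% for all windows. A match is a string of letters only. No FOSL2 or FOSB peak lay within 1 kb of any member's start site. At 48 h FOSL2 had such a peak at 0.680% of genes with a listed start in control cells and 1.45% in KO cells. For FOSB the shares were 0.0743% and 0.0114%, so the lack of such peaks does not set the members apart.

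All 10 genes had H3K4me3 in their windows at both times (73.5% of all genes at 0 h and 73.2% at 48 h). Within 1 kb of a start site, H3K4me3 was again present at 10 of 10 at both times, where 61.3% and 61.5% of the genes with a listed start had it. The size of the peak split the genes. At 0 h the authors' fold enrichment over input was 93.2 at Ocln, 68.6 at Lsr, 58.4 at Tjp1, 38.5 at Cgn, 37.8 at Marveld2 and 31.6 at Crb3. The claudins were lower, with 11.2 at Cldn3, 7.20 at Cldn7 and 5.14 at Cldn4, and Tjp3 had 6.26 at its own start. Within the 0 h list those of Cldn4 and Ocln ranked at the 18.6 and 98.3 percentiles of all peaks. At 48 h the split was the same, with 4.05 to 10.7 at the claudins, 3.97 at Tjp3 and 25.7 to 57.4 at the other 6. Fold enrichment depends on depth, which is unknown here, so values of 0 h and 48 h printed side by side, here and below, are not read as a change.

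Several high H3K4me3 peaks away from the starts lay at the edges of neighbouring genes. The highest in the Ocln window (124 at 0 h) lay 60.4 kb downstream of the start, at the edge of Gtf2h2. At Lsr the highest (87.5) lay 16.7 kb downstream, between the end of Lsr and the edge of Usf2, at Tjp3 (62.4) 1.67 kb upstream at Pip5k1c, and at Crb3 (61.5) 2.63 kb upstream at Slc25a23. The Marveld2 peak overlapped the edge of Rad17. Tjp3 also had an internal site about 5.8 kb downstream of its start, with H3K4me3 of 31.8 at 0 h and 12.5 at 48 h, above that at its own listed start in the same libraries. Tjp1 carried H3K4me3 at the upstream edge of its long span, 156 kb before the listed start (11.2 at 0 h and 13.9 at 48 h), and 52.7 kb before it (10.0 and 7.11), beside the stronger peak at the start. Cgn carried it 28.6 kb downstream of its start as well (14.5 and 8.75).

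**Figure D1:**
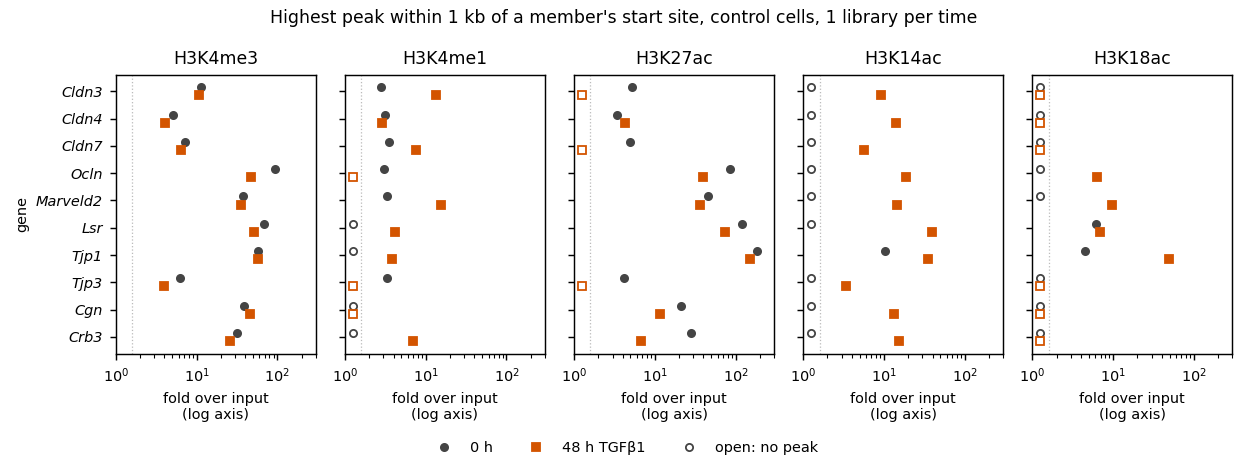
Fold enrichment over input (log axis) of the highest peak of 5 histone marks within 1 kb of each gene's start site, in control cells at 0 h (circles) and after 48 h of TGFβ1 (squares), 1 library each. Open symbols left of the dotted line stand for no peak. In H3K4me3 the 3 claudins and Tjp3 sit between 3.97 and 11.2, and the other 6 genes between 25.7 and 93.2.

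H3K27ac covered 10 of 10 windows at 0 h (66.6% of all genes) and 8 of 10 at 48 h (59.2%). Cldn3 and Cldn7 were the genes with a 0 h peak and no 48 h peak, 2 of 10 members against 8.48% of all genes. The reverse was found for 0 members and 1.04% of all genes. Cldn3 had 1 peak of 5.20-fold at its start at 0 h. Cldn7 had 3 of 3.13 to 4.98-fold within its span, 2 of them within 1 kb of its second listed start. Within 1 kb of a start the count went from 10 of 10 (56.6%) to 7 of 10 (48.0%), because the weak Tjp3 start peak (4.10-fold) was also missing at 48 h. At the other starts H3K27ac was present at both times, highest at Tjp1 (186 at 0 h, 150 at 48 h) and Lsr (120 and 73.1), with 85.4 and 39.2 at Ocln, 46.1 and 36.2 at Marveld2, 28.0 and 6.69 at Crb3, and 21.2 and 11.5 at Cgn. Of the 29 H3K27ac peaks of the members at 0 h, 15 overlapped a 48 h peak, or 51.7%, against 61.1% over the whole list. The Cldn3 and Cldn7 differences concern low peaks of 1 library per time, and only Cldn3 was left in the 0 h class when peaks under 5-fold were dropped. In the wider list of junction and polarity genes (31 of 32 symbols matched, Pals1 under its older name Mpp5), 3 genes had H3K27ac at 0 h only, among them Cldn15 (8.22-fold) and Amot (2.87-fold). Cldn2 (5.38) and Jam3 (2.97) had it at 48 h only.

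At Cldn4 acetylation peaks were more numerous at 48 h than at 0 h, with 1 library per mark and time. Its window held 1 H3K27ac peak at 0 h and 4 at 48 h, 0 H3K18ac peaks at 0 h and 6 at 48 h, and 0 H3K14ac peaks at 0 h and 3 at 48 h. From 0 to 48 h the lists went from 20507 to 15962 peaks for H3K27ac and from 13226 to 20415 for H3K18ac. For H3K14ac they went from 3453 to 35270. The share of all genes with more peaks at 48 h is not given, so these numbers are not read as a trait of Cldn4. Of the other members only Ocln also had more H3K27ac peaks at 48 h (4, against 2 at 0 h). H3K14ac was at 48 h only in 7 members, Cldn3 and Cldn7 among them (56.4% of all genes), and H3K18ac in 4 (24.6%). More than 2 kb upstream of its start there were 5 H3K18ac peaks at 48 h (2.03 to 9.74 kb, 2.47 to 5.93-fold), 3 H3K27ac peaks (3.87 to 10.2 kb, 2.50 to 6.25-fold) and 1 H3K14ac peak (4.87 kb, 8.48-fold). None of the 3 acetylations had a peak there at 0 h. This upstream stretch was not set in advance. The lowest H3K27ac and H3K18ac peaks there ranked at the 0.865 and 0.852 percentiles of their 48 h lists. The same stretch already held H3K4me1 (4.94 kb, 3.07-fold) and BRG1 (4.19 kb, 2.63-fold) at 0 h, and the H3K4me1 peak was not listed at 48 h. PHF10 was called 4.98 and 4.94 kb upstream in the 2 control libraries of 48 h and 4.96 kb upstream in KO cells at 48 h, and in none of the libraries of 0 or 24 h. ATF3 reached it in KO cells at 48 h alone (4.68 kb, 2.76-fold).

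**Figure D2:**
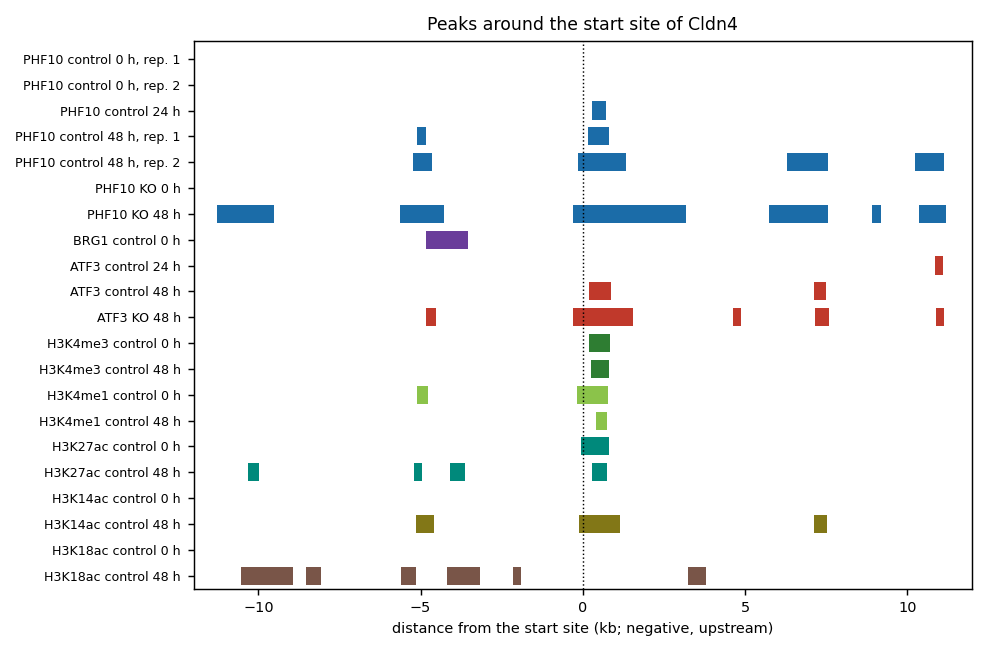
Peaks within 12 kb of the start site of Cldn4, by list, with FOSL2, FOSB and ATF3 at 0 h and in KO cells at 24 h, which held none there, not drawn and empty rows for other lists that held none. The horizontal axis is the distance from the start in kb, negative upstream, each bar is 1 peak at its true width, and each row is 1 library. The upstream stretch holds BRG1 and H3K4me1 at 0 h and 5 H3K18ac, 3 H3K27ac and 1 H3K14ac peaks at 48 h.

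H3K14ac was found in 3 of 10 windows at 0 h (18% of all genes) and 10 of 10 at 48 h (74.4%). The 0 h list held 3453 peaks and the 48 h list 35270. Of the 3 peaks at 0 h, that of Tjp1 lay at the gene's own start (10.3-fold), that of Lsr at the edge of Usf2 (30.2) and that of Tjp3 near Pip5k1c (4.87), so 1 of 10 starts was covered (13.4% of genes) before and 10 of 10 (61.4%) after. The 7 genes gained in the 48 h list stand against 56.4% of all genes, and none went the other way (0.0959%). Their start peaks ranged from 5.60-fold at Cldn7 to 19.0 at Ocln, and of the other 3 genes Lsr (38.9) and Tjp1 (35.1) had higher values and Tjp3 a lower one (3.37). With both lists reduced to 3453 peaks by significance, no member was in the 48 h list alone. H3K14ac was at 48 h only in 16 of 31 genes of the wider list, led by Cldn12 (45.7-fold) and Prkcz (25.7).

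H3K18ac covered Ocln, Lsr, Tjp1 and Cgn at 0 h, 4 of 10 windows (24.3%), and 8 of 10 at 48 h (45.1%), all but Cldn3 and Cldn7. Cldn4, Marveld2, Tjp3 and Crb3 had it at 48 h only (24.6% of all genes) and no member at 0 h only (3.87%). At starts the count was 2 of 10 (10.5%) at 0 h, Lsr with 6.11-fold and Tjp1 with 4.44, and 4 of 10 (31.2%) at 48 h, when Ocln (6.29) and Marveld2 (9.80) were added and Tjp1 had 49.3. The Tjp3 and Crb3 peaks of 48 h lay nearest to Pip5k1c, Mrpl54 and Slc25a23, and with each peak counted for its nearest gene 2 members remained in the 48 h class. Of the wider genes 3 had H3K18ac at 48 h only, among them Scrib (48.2-fold) and Lin7c (39.4), and 2 had it at 0 h only, Marveld3 (9.57) and Cldn8 (5.11).

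Within Tjp1 the mark was placed differently. Between 105 and 80 kb upstream of the listed start, inside the long gene span, the 0 h list held 7 H3K18ac peaks (4.80 to 10.0-fold) covering 4.60 kb, and the 48 h list held 2 (4.09 and 4.42) covering 1.75 kb. This stretch was chosen after its peaks were seen. It also held 4 BRG1 peaks at 0 h (6.54 kb, 3.10 to 3.77-fold), 2 H3K27ac peaks at 0 h and 0 at 48 h, and no peak of H3K4me3, H3K4me1 or H3K14ac at either time. PHF10 had 0 peaks there in both control libraries of 0 h and in that of 24 h, 2 in each control library of 48 h and 5 in KO cells at 48 h, where ATF3 also had 5 and FOSL2 1. Over the 10 windows 8 of 17 H3K18ac peaks of 0 h overlapped a 48 h peak, or 47.1%, against 47.3% in the whole list.

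H3K4me1 was present in 8 of 10 windows at 0 h (50.0%) and 9 of 10 at 48 h (43.3%). Lsr had it at 48 h only (1 member, 5.51% of all genes), no member at 0 h only (12.1%), and Cgn at neither time. With peaks of at least 5-fold 7 members were at 48 h only. That cut lies above the median fold of the 0 h list (3.44) and below that of the 48 h list (8.46), and the share of all genes at it is not given. Start sites counted 6 of 10 (25.5%) at 0 h and 7 of 10 (26.4%) at 48 h. Lsr, Tjp1 and Crb3 had a start peak at 48 h only (3 of 10, 6.76% of genes with a listed start). Ocln and Tjp3 had one at 0 h only (2 of 10, 5.87%). Within the 48 h list the strongest lay at the upstream edge of Tjp1 (22.1-fold), near Slc25a23 in the Crb3 window (17.1), at Marveld2 (15.6) and at Cldn3 (13.4). In Ocln a site 10.6 to 10.7 kb downstream of the start held H3K4me1 at both times (4.39 and 7.45), H3K14ac at 48 h (12.7), ATF3 in control cells at 48 h (9.82) and PHF10 in both control libraries of 48 h (4.71 and 3.70). H3K4me3 changed class at no member (48 h only 1.01%, 0 h only 1.32% of all genes), or at 1, Cldn4 at 0 h only, with peaks of at least 5-fold. Among the wider genes H3K4me1 was at 48 h only in 4 genes, with Prkcz (9.09) and Dlg1 (4.31) first, and at 0 h only in 5, with Prkci (5.02) and Cldn15 (3.97) first. H3K4me3 was at 48 h only in Cldn15 (3.01) and Cldn1 (2.11).

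PHF10 was called at 8 of 10 genes in each control library of 0 h, where 48.2% and 59.1% of all genes were called, and at 10 of 10 at 24 h (71.3%) and in both libraries of 48 h (75.0% and 83.8%). The 2 libraries of 0 h missed Cldn4 and 1 further gene each, Cgn in replicate 1 and Cldn3 in replicate 2. Within 1 kb of a start the count was 6 of 10 in each 0 h library (35.6% and 46.7%) and 10 of 10 in each 48 h library (59.4% and 68.8%). Cldn4 alone was called in each library of 48 h and missed in each of 0 h, 1 of 10 against 14.5% of all genes. Within 1 kb of a start this class held 3 of 10, Cldn4, Tjp3 and Crb3, against 12.2% of genes with a listed start. With peaks of at least 5-fold no member was left in the 48 h class and 1, Tjp1, was in the reverse class. That cut lies above the median fold of both 48 h lists (2.99 and 2.92). It lies below the median of 0 h replicate 1 (8.70) and above that of 0 h replicate 2 (3.93). The share of all genes at this cut is not given. With all peaks no member was in both 0 h libraries and absent from both of 48 h (0.0228%). The 24 h library gave the same member, 1 of 10 against 10.8%, and 0 in the other direction (0.0503%). Leaving out either 0 h library raised the 48 h class to 2 members, by Cldn3 or by Cgn, with the same effect on the 24 h class. Elsewhere in the wider list 4 of 31 genes were in both 48 h libraries only, led by Amot (3.71) and Cldn15 (3.58), and 2 at 24 h only, Amot (4.38) and Cldn1 (3.01).

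The number of PHF10 peaks per window gives the spread between libraries. Tjp1 had 2 and 2 peaks at 0 h, 3 at 24 h and 6 and 15 at 48 h. Tjp3 had 2 and 4 at 0 h, 9 at 24 h and 9 and 11 at 48 h, and Cgn had 0 and 1, then 3, then 4 and 7. In these 3 genes both 48 h libraries were above both 0 h libraries, and replicate 2 of 48 h was the higher one. Cldn4 had 0 and 0, then 1, then 2 and 4, Ocln 1 and 2, then 2, then 3 and 5, Crb3 1 and 1, then 3, then 2 and 5, and Marveld2 1 and 1, then 1, then 2 and 3. Values overlapped between the times at Cldn3 (2 and 0 at 0 h, 1 and 2 at 48 h), Cldn7 (2 and 1, then 1 and 1) and Lsr (2 and 2, then 2 and 4). The mean rose most in number at Tjp1, from 2 ± 0 to 10.5 ± 6.36 peaks (SD, n = 2 libraries at each time). Both 48 h libraries had more peaks than both 0 h libraries at 7 of 10 members, against 52.1% of all genes. With 2 libraries on each side the exact permutation test (two-sided) cannot go below p = 0.333, which these 7 reached (adjusted over all genes, 0.639 by Benjamini-Hochberg), so no member passed the test. The lists grew from 11285 and 14731 peaks at 0 h to 43549 and 102434 at 48 h.

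**Figure D3:**
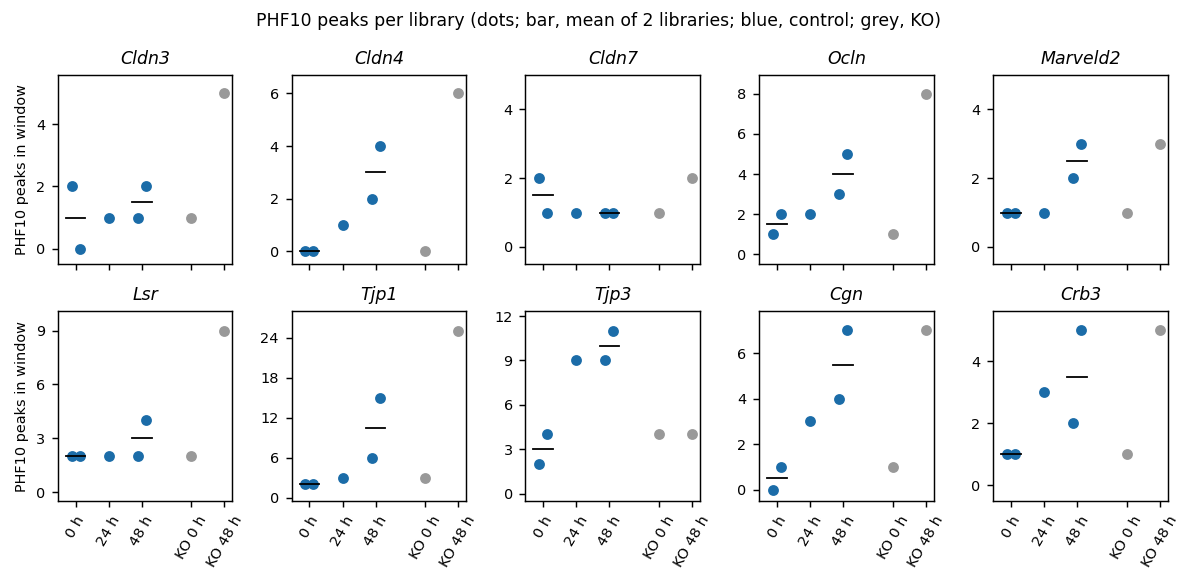
PHF10 peaks in each gene's span and 10 kb to either side. Each dot is 1 library (blue, control; grey, Pbrm1 KO), and the bar is the mean of the 2 libraries at that time. Both control libraries of 48 h sit above both of 0 h at 7 of the 10 genes, and Cldn3, Cldn7 and Lsr overlap.

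PHF10 sites shared by both control libraries of 0 h numbered 9, at Cldn7, Ocln, Marveld2, Lsr (2), Tjp1 (2), Tjp3 and Crb3. All 9 overlapped H3K4me3 of 0 h, and all 9 were also called in the control library of 24 h and in KO cells at 0 h. Over the whole list 99.6%, 99.5% and 95.2% of 8657 such peaks did so, so these counts do not set the members apart. They included sites at gene starts and at the edges of spans, such as the Pip5k1c side of Tjp3 and the upstream edge of Tjp1. BRG1 overlapped 6 of them, or 66.7% (exact Clopper-Pearson 95% interval 29.9 to 92.5%), against 52.9% over the whole list. With 1 library left out the share was lower, 7 of 14 sites (50%, whole list 39.4%) without replicate 1 and 5 of 13 (38.5%, whole list 41.4%) without replicate 2. The 3 without BRG1 were the Cldn7 site, at that gene's second listed start, the upstream edge of Tjp1 and the Pip5k1c side of Tjp3. The interval covers counting error only and treats nearby sites as independent.

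BRG1 was called at 9 of 10 genes (56.7%), all but Cldn3, with 11 peaks at Tjp1, 6 at Cgn and 4 at Tjp3. Start sites made up 6 of 10 (32.7%): Ocln, Marveld2, Lsr, Tjp1, Cgn and Crb3, the 6 genes with the higher H3K4me3 start peaks. The highest BRG1 values of the members were 3.78 at Ocln, 16.5 kb downstream of the start, 3.77 at Tjp1, 97.6 kb upstream, and 3.41 at Cgn, 29.1 kb downstream. Of 31 member peaks 12 overlapped H3K4me3, or 38.7%, against 24.4% in the whole list.

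PHF10 was called in nearly the same windows in KO and control cells. KO cells at 0 h had a PHF10 peak at 9 of 10 genes (52.4%), all but Cldn4, and at 48 h at 10 of 10 (87.9%). No member was called in KO cells and in neither control library at 0 h (1.06% of all genes) or at 48 h (4.25%), and none in both control libraries and not in KO cells at 0 h (1.30%) or 48 h (0.0959%). With 1 control library of 0 h left out, 1 gene was in KO cells only at 0 h, Cldn3 without replicate 1 and Cgn without replicate 2. From 0 to 48 h in KO cells Cldn4 was again the single gene gained (1 of 10, 35.6%), with none lost (0.0777%). This direction depended on the peaks counted: 0 members were gained and 6 lost with both lists at equal length, 0 and 5 when peaks under 5-fold were dropped, and 1 (Cgn) and 4 with a −log10 q of at least 5. The KO list of 0 h held 11515 peaks with a median fold of 5.30, and that of 48 h held 158815 with a median of 3.13. Shares of all genes at these settings are not given, so the counts are not read as a loss particular to the members. The KO peak numbers at 0 h were 1 at Cldn3, Cldn7, Ocln, Marveld2, Cgn and Crb3, 2 at Lsr, 3 at Tjp1 and 4 at Tjp3, each within 1 peak of a control library of 0 h. At 48 h they were 25 at Tjp1, 9 at Lsr, 8 at Ocln, 7 at Cgn, 6 at Cldn4, 5 at Cldn3 and Crb3, 3 at Marveld2 and 2 at Cldn7, at or above both control libraries, in a list of 158815 peaks. Tjp3 had 4, below the 9 and 11 of the control libraries, but KO peaks covered 34121 bp of its window against 11180 and 25393 bp, since its peaks were wide. At 48 h the median over all genes was 5 PHF10 peaks in KO cells and 2 and 3 in the control libraries. The share of all genes at or above both control libraries is not given, so the numbers are not read as a trait of the members. Over the 10 windows 29 of 32 peaks of control replicate 1 and 46 of 57 of replicate 2 overlapped a KO peak at 48 h, 90.6% and 80.7%, against 92.5% and 88.0% in the whole lists. In the wider list Ildr1 (4.33) was called in both control libraries of 0 h and not in KO cells, Cldn2 (3.11) in KO cells and neither control library at 48 h, and 10 genes in KO cells at 48 h only, led by Ildr1 (5.93) and Esam (4.07). The wide KO peaks, and the longer KO list, move with genotype at 48 h, and the part they play in these counts was not tested.

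**Figure D4:**
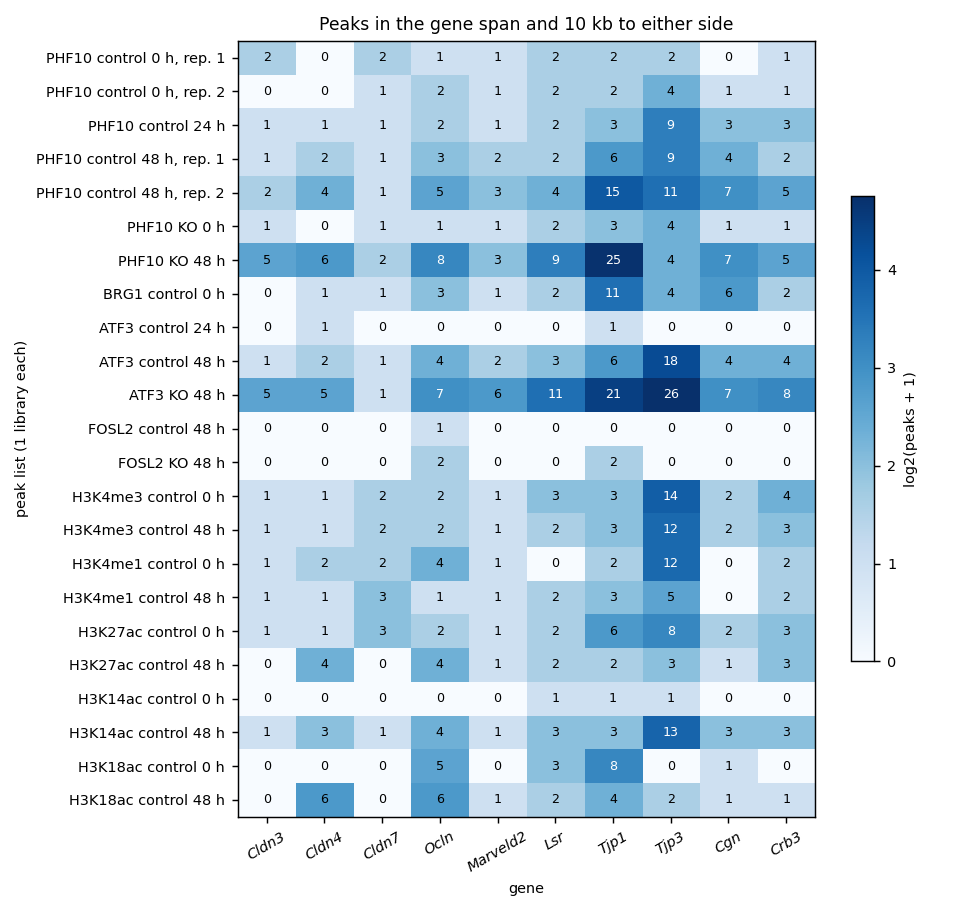
Number of peaks in the span and 10 kb to either side of each gene (columns) in the 23 lists that held any (rows). Shading is log2(peaks + 1) and the number of peaks is printed in each cell. Tjp1 and Tjp3 hold the highest numbers, with up to 25 and 11 PHF10 peaks and 21 and 26 ATF3 peaks.

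ATF3, which is induced by stress and by TGFβ, was called at no member at 0 h in either genotype, in lists of 20 and 25 peaks (0.0594% and 0.0640% of all genes called). At 24 h control cells had it at Cldn4 and Tjp1, 2 of 10 (7.00%), and KO cells at none (0 of 10, 0.114%). Both members were therefore in control cells only (7.00%), and none in KO cells only (0.105%). The Tjp1 peak lay 10.8 kb upstream of the start (5.37-fold, chromosome 7, 65381938 to 65382149) and the Cldn4 peak 10966 bp downstream (3.84-fold, chromosome 5, 134935853 to 134936084), the latter nearer to Mettl27. Neither peak overlapped an ATF3 peak of control cells at 48 h, and both overlapped one of KO cells at 48 h. Over the whole lists 27.6% and 54.7% of the 24 h peaks did so. The KO list of 24 h held 69 peaks and the control list 2004, and with both reduced to 69 no member was left. ATF3 was in control cells only at 24 h in 6 of 31 wider genes, led by Cgnl1 (3.72) and Magi3 (3.68), and none in KO cells only.

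At 48 h ATF3 was called at 10 of 10 windows in control cells (76.4%) and in KO cells (84.6%), and at 10 of 10 starts in both (61.5% and 64.5%). No member was in one genotype only (KO 9.91%, control 1.70% of all genes). With peaks of at least 5-fold, 8 members were in control cells only, all but Ocln and Tjp1. That cut lies above the median fold of the KO list (3.52) and below that of the control list (6.75). The share of all genes at this cut is not given, so the 8 are not read as a trait of the members. In the control list start peaks ran from 5.69-fold at Tjp3 and 6.15 at Cgn to 10.9 at Cldn3 and 12.3 at Ocln, and in contrast to H3K4me3 the claudins were not the low ones. Cldn3 ranked at the 90.7 percentile of that list. In the KO list the starts ran from 2.08-fold at Tjp3 to 4.38 at Cldn7, and the median fold of that list, 3.52, was also below the 6.75 of the control list. KO cells had 97 peaks in the 10 windows and control cells 45, in lists of 144513 and 45716. The number was higher in KO cells at 9 genes, from 6 to 21 at Tjp1, 18 to 26 at Tjp3 and 3 to 11 at Lsr, and equal at Cldn7 (1 and 1), while 72.2% of all genes had more peaks in KO cells. Of the control peaks 36 of 45 overlapped a KO peak (80.0%, whole list 66.7%), and of the KO peaks 38 of 97 overlapped a control peak (39.2%, whole list 22.1%). H3K4me3 of 48 h underlay 30 of 45 control peaks (66.7%, whole list 62.2%) and 29 of 97 KO peaks (29.9%, whole list 16.8%). Cldn2 (3.77) and Cldn8 (2.66) of the wider list were in KO cells only.

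FOSL2, an AP-1 subunit, was found at Ocln in control cells at 48 h (1 of 10, 9.22% of all genes) and at Ocln and Tjp1 in KO cells at 48 h (2 of 10, 17.2%). Tjp1 was thus in KO cells only (1 of 10, 8.64%) and no member in control cells only (0.603%). At Ocln a site 35.8 kb downstream of the start was called in both genotypes, with 3.33-fold in control cells (chromosome 13, 100516809 to 100517050) and 7.86 in KO cells (100516707 to 100517028). The control peak ranked at the 0.494 percentile of its list. With peaks of at least 5-fold, or with a −log10 q of at least 5, Ocln was in KO cells only as well. KO cells had a further Ocln peak 16.3 kb downstream (6.73, 100536283 to 100536533) and 2 Tjp1 peaks, 81.2 kb upstream (8.06, chromosome 7, 65452322 to 65452609) and 3.21 kb downstream (5.89, 65367890 to 65368178). All 4 KO peaks and the control peak overlapped a BRG1 peak of untreated control cells, against 41.8% of the whole KO list and 50.5% of the whole control list. With 4 peaks in 2 genes the exact 95% interval of that share ran from 39.8 to 100%. None of the 4 overlapped an ATF3 peak of KO cells at 48 h (8.37% in the whole list). The KO list held 7381 peaks and the control list 3444, and with the lists at equal length Ocln was in control cells only. The 0 h lists of FOSL2 held 7 and 5 peaks, and no member was called (0.00914% of all genes in control cells and 0.00457% in KO cells).

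FOSB was called at no member in any of its 4 lists of 2 to 188 peaks (0.00914% of all genes in each genotype at 0 h, and 0.717% in control and 0.0959% in KO cells at 48 h). Neither class of the 48 h comparison held a member (0.0548% in KO cells only, 0.676% in control cells only). The neighbours Cldn6 and Cldn9 of the wider list shared 1 FOSB peak of control cells at 48 h (5.28-fold).

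**Figure D5:**
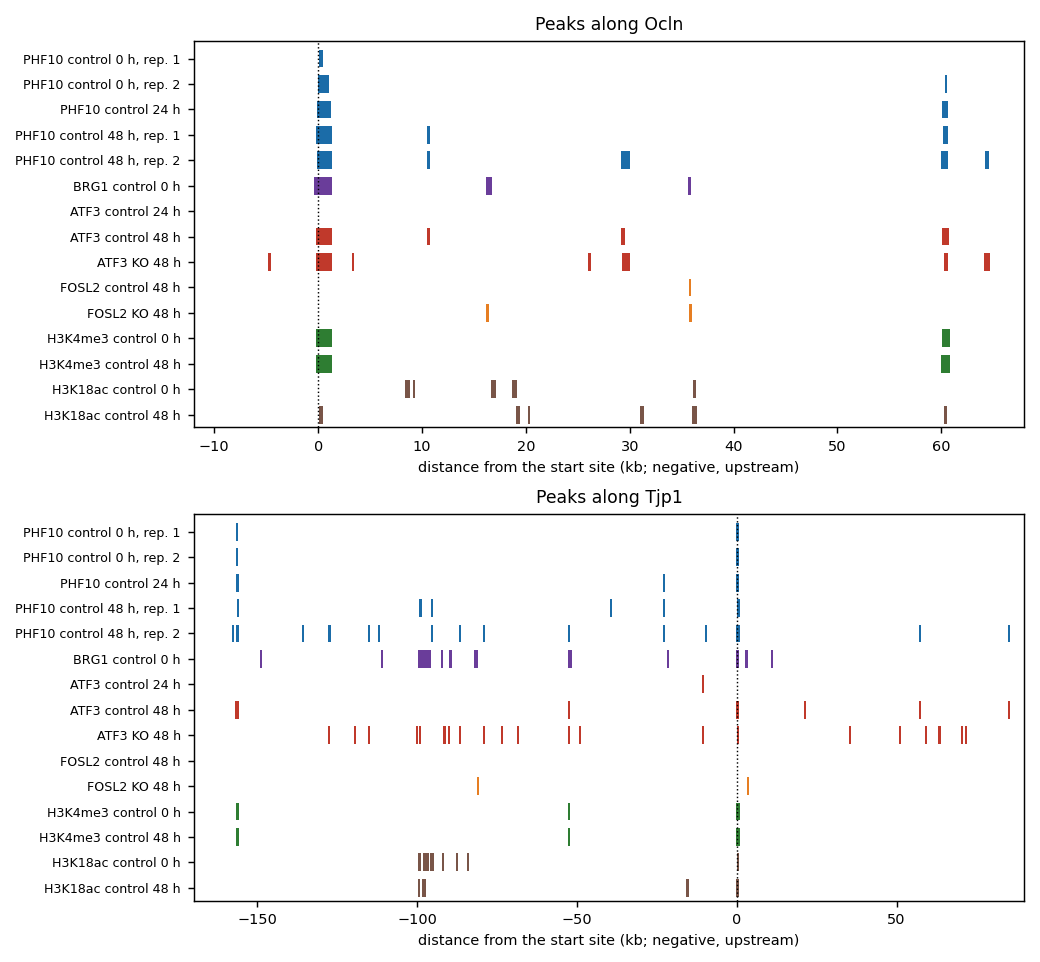
Peaks along Ocln (top) and Tjp1 (bottom) in 15 lists (PHF10, BRG1, H3K4me3 and H3K18ac of control cells, and ATF3 and FOSL2 of control and KO cells). The horizontal axis is the distance from the start site in kb, negative upstream, bars are peaks, and each row is 1 library. In KO cells at 48 h FOSL2 peaks lie 16.3 and 35.8 kb downstream of the Ocln start. Also in KO cells, FOSL2 peaks lie 81.2 kb upstream and 3.21 kb downstream of the Tjp1 start. Control cells have only the FOSL2 peak 35.8 kb downstream of the Ocln start. Each FOSL2 peak lies on a BRG1 peak, and the 7 H3K18ac peaks of 0 h lie around 84 to 99 kb upstream of Tjp1.

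Across the 32 lists Tjp1 had a peak in 22, Ocln in 21, Lsr and Tjp3 in 19, Marveld2 and Crb3 in 18, Cldn4, Cldn7 and Cgn in 16 and Cldn3 in 14. The peak numbers (log2 of peaks + 1) of each gene followed the median of the other 9 across the 32 lists with Pearson's r of 0.699 at Cldn7 to 0.966 at Crb3. In the wider list Llgl2 (0.962), Patj (0.931) and Magi3 (0.922) followed the members' median most closely, and Cldn2 (0.282) least. These values describe 32 libraries that share cells and differ in list length, from 2 to 158815 peaks. The part of list length in them was not tested. As a check of the cell type, all 10 epithelial markers (Cldn7 among them, the others including Cdh1, Epcam and Krt8) had both H3K27ac and H3K4me3 at 0 h, where 65.7% of all genes did. Of markers of other cell types, 1 of 5 fibroblast, 2 of 5 endothelial and 3 of 5 adipocyte genes had both (Pdgfra, Cdh5, Kdr, Plin1, Cidec and Cfd, with H3K27ac up to 67.1-fold at Cidec and 31.1 at Plin1). Thy1, Pecam1, Tek and Lep had H3K4me3 without H3K27ac, and Dcn, Lum, Col3a1, Emcn and Adipoq had neither.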

How the data were processed

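ChIP-seq peak lists were analysed as deposited, 1 per library for 32 of 47 samples, the rest being inputs. Per the submitters' processing notes, which give no roles, the build was mm10 and the tools were MACS3 (3.0.0a7), deepTools (3.5.1), Bowtie2 (2.3.3), the Partek software (11.0.24.0325) and fastp (0.19.5). Per the labels' protocols, PHF10, BRG1 and ATF3 samples were fixed with disuccinimidyl glutarate and formaldehyde, the others with formaldehyde. Fold enrichment, a ratio of ChIP to input, was deposited by the authors. The deposited −log10 p-value and −log10 q-value ranked and filtered peaks. PHF10 and BRG1 lists reach a q of 0.0996 and the others 0.0501. Depth is unknown, so list lengths and folds cannot be corrected for it.

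Genes came from RefSeq (GRCm38.p6) without strand; promoter windows gave strand and starts. Called means at least 1 peak touching the span or 10 kb to either side; a start peak touches 1 kb to either side of a listed start. Overlap means 1 bp. A gene in 1 arm only had peaks in all libraries of that arm and none of the other. The text names all 10 members and, of the wider list, up to 2 genes per class with the highest fold; Cldn25 had no match. Members and lists were chosen with earlier results of these data known. Outside control PHF10 no group had replicates, and no test was made. Calls were tested on simulated data (Python 3.11.15, pandas 2.3.3, SciPy 1.17.1). The counts of 1 further marker list are not reported here.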

Additional observations from a re-analysis of the deposited data

Results flagged for a closer look

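At 2 genes the number of ATF3 peaks in KO cells lay below that of control cells at 24 h and above it at 48 h. KO minus control was −1 at 24 h and 3 at 48 h for Cldn4, and −1 at 24 h and 15 at 48 h for Tjp1. Each value rests on 1 library per group, and the difference between the times was not tested. The KO list was the shorter at 24 h (69 against 2004 peaks) and the longer at 48 h (144513 against 45716), and the part of list length in these differences was not tested.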

How the results depend on the processing

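Values are members (of 10) with peaks in 1 arm only, or the BRG1 share. Shares of all genes are not given for the settings listed here. A count within 1.5 times, or a share inside its interval, is not listed as moved. With peaks of a −log10 q of at least 5, 7 of 29 values moved and 19 had the same value and genes (H3K14ac at 48 h only went from 7 to 8, and PHF10 at 24 h only and in KO cells at 48 h only held Cgn in place of Cldn4). PHF10 in control cells at 48 h only went to 2 (Cldn4, Cgn), in control against KO cells at 48 h to 2, in KO cells at 0 h only to 4, ATF3 in control cells at 24 h to 0, FOSL2 in KO cells to 2, H3K4me1 at 0 h only to 1, and PHF10 sites with BRG1 to 0% (0 of 3). With a fold of at least 5, 13 of 29 moved and 15 were identical (H3K14ac went to 8). PHF10 went to 0 at 48 h only and 1 in the reverse class, to 0 for 24 h only, and in KO cells to 0 at 48 h only and 5 at 0 h only. ATF3 in control cells only went to 1 at 24 h and 8 at 48 h, FOSL2 in KO cells to 2, H3K4me3 at 0 h only to 1, H3K4me1 at 48 h only to 7, H3K27ac to 1 at each time, and sites with BRG1 to 0% (0 of 1). The 2 kb window moved 1 of 28 (ATF3 in control cells at 24 h, to 1) and left 26 identical (H3K18ac at 48 h only went from 4 to 3). Counting each peak for its nearest gene moved 6 of 28 and left 21 identical (H3K14ac went to 9), with PHF10 at 2 for 48 h only and 24 h only, 1 at 0 h against 24 h and 2 in KO cells at 48 h, ATF3 at 24 h at 1 and H3K18ac at 48 h at 2. With lists of equal length 12 of 28 moved and 16 were identical. PHF10 went to 1 at 0 h only against 48 h (Cldn7), 0 at 24 h only, 1 in control against KO cells at 48 h, and in KO cells 0 at 48 h only and 6 at 0 h only. ATF3 in control cells at 24 h went to 0, FOSL2 in control cells to 1, H3K4me1 at 48 h to 2, H3K27ac at 48 h to 1, H3K14ac to 0 at 48 h and 1 at 0 h, and H3K18ac at 0 h to 1. The cause of these changes was not tested. With an overlap of at least 0.5 of the shorter peak the BRG1 share was 55.6% (5 of 9).

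Without 1 library each, PHF10 at 48 h only ranged from 1 to 2, at 24 h only it was 2 and in KO cells at 0 h only 1, and the BRG1 share ranged from 38.5% to 50%. With the replicate block the mean differences in PHF10 peaks (Tjp1 8.5, Cldn7 -0.5) were the same and the smallest exact permutation p was 0.5. The difference of replicate 2 minus replicate 1 (log2 of peaks + 1) at 0 h correlated with that at 48 h at -0.0388 over 21887 genes. This value cannot decide whether same-numbered libraries were paired, since the lists differ in length. Depth is unknown, so a missing peak is no absence of binding.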
